A study of Mus musculus with 6 samples.

Results

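The complement genes of the mouse liver were compared between S1P lyase knockout (KO) animals and wild-type (WT) animals. The 33 genes, encoding complement components, regulators and receptors, were taken as a list, and every probe set on an Affymetrix mouse expression array whose platform annotation gives exactly 1 symbol from it was used. This gave 49 of the 45101 probe sets in the deposited table, for 29 of the 33 genes. C3, C4b, C7 and Cfd were not analysed here, and the probe set annotated to both C4a and C4b was left out by the rule. Total RNA of whole liver came from 3 KO mice and 3 WT mice, 1 array per animal, on a mixed C57BL6 and 129sv background. S1P lyase, the product of Sgpl1, degrades sphingosine 1-phosphate, and the labels name no treatment and no tissue limit of the knockout. Strain alleles can segregate in such a mixed background, and age, sex, litter and batch are not in the labels used here. Values are log2 expression as the authors deposited them, and a difference is KO minus WT. Replicates are separate mice, so the spread covers animals and arrays together.

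Complement is a cascade of plasma proteins that marks microbes and dying cells for removal, draws in leukocytes and can punch pores in membranes. It is started by the classical pathway (C1q bound to antibody), the lectin pathway (mannose-binding lectins and ficolins bound to sugars) or the alternative pathway (spontaneous turnover amplified by factor B), which converge on cleavage of C3 and then of C5. Hepatocytes secrete most of the plasma components, while C1q, properdin and the receptors are mainly products of macrophages and other leukocytes.

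Sgpl1 read 2.46, 2.99 and 2.87 log2 in KO livers, against 6.65, 6.90 and 6.71 in WT livers, so each label fits the targeted gene. Hepatocyte markers were bright in every array, with a mean over 14 tested markers of 12.3 to 12.4 in KO and 12.5 to 12.6 in WT. Across 13370 genes tested, correlation between arrays was 0.983 to 0.990 within KO, 0.979 to 0.983 within WT and 0.936 to 0.950 between them. Control probe sets moved with genotype. The 3' minus 5' signal was 0.45 log2 higher in KO for Actb, 0.47 for Gapdh and 1.01 for Pcx, and poly-A spike-in RNAs were 0.75 higher, with no overlap of the groups in any of the 4 (two-sided exact permutation p = 0.1 each, which is the floor for groups of 3). Their part in the differences that follow was not tested. Xist was read at 6.46 log2 or more by all 3 of its probe sets in every array, and 9 probe sets of Y-linked genes read 3.08 or less.

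Of the 29 complement genes, all of which passed the filter on low values, 6 rose in KO livers, 5 fell and 18 were not called (limma, with p adjusted by Benjamini-Hochberg across the 13370 genes and a threshold of 0.05). Each gene was read by its brightest probe set. The share that rose was 20.7%, where 10.5% of all genes rose, and the share that fell was 17.2%, where 8.09% of all genes fell. The genes that rose were the integrin chains Itgb2 and Itgax, the protease precursor C2 and the regulators Cd55, Clu and Serping1. Those that fell were C8g and C6 of the membrane attack complex and Masp2, Mbl2 and Fcna of the lectin pathway. The median difference over the 29 genes was 0.05 log2, against -0.05 over all genes tested. KO values lay wholly above WT values in 8 genes (27.6%, against 19.0% of all genes) and wholly below in 7 (24.1%, against 21.8%).

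**Figure D1:**
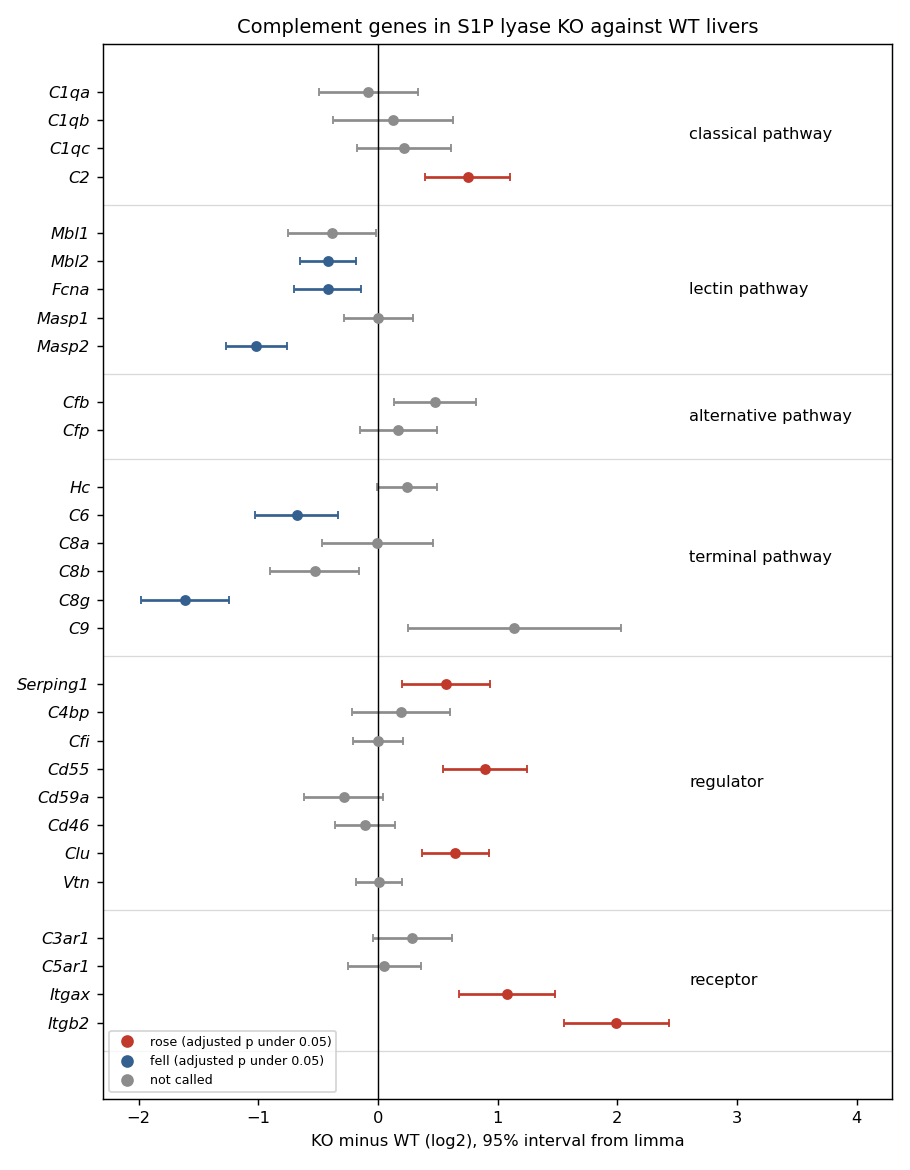
Difference between KO and WT livers (log2, x axis) for each of the 29 complement genes, grouped by role, with points for the limma estimate from 3 KO and 3 WT livers and bars for its 95% interval. The 6 genes that rose (red) run from Serping1 at 0.57 to Itgb2 at 1.99, the 5 that fell (blue) from C8g at -1.61 to Mbl2 at -0.42, and the other 18 are grey.

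In the classical pathway, C2 rose and the C1q chains were not called. C2 is the protease precursor that, cleaved, forms the C3 convertase together with C4b. It read 9.09, 9.23 and 8.98 log2 in KO livers, against 8.23, 8.65 and 8.17 in WT livers. Every KO liver lay above every WT liver, and C2 rose 1.68-fold (0.75 log2, SE 0.15, limma adjusted p = 0.0135). Its other probe sets rose as well, by 0.61 and 0.87 log2 (limma adjusted p = 0.0237 and 0.0127 over all 27022 probe sets). Without KO replicate 2 the call was lost, at 0.68 log2 (adjusted p = 0.0614).

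C1q is assembled from A, B and C chains, encoded by 3 neighbouring genes on chromosome 4 and made mainly by macrophages. C1qa read 8.25, 8.35 and 8.46 log2 in KO livers, against 8.47, 8.77 and 8.06 in WT livers. C1qb read 8.69, 9.01 and 9.04 in KO, against 8.79, 9.23 and 8.35 in WT. C1qc read 8.19, 8.38 and 8.27 in KO, against 8.0, 8.41 and 7.77 in WT. In all 3 genes the KO livers lay inside the range of the WT livers, whose highest animal was replicate 2 and whose lowest was replicate 3 each time. The 95% intervals of the differences ran from -0.50 to 0.33 for C1qa, from -0.38 to 0.63 for C1qb and from -0.17 to 0.61 for C1qc. The dimmer probe sets of C1qb, of a type that can read related sequences, gave 0.83 (SE 0.25) and 0.51 log2 (SE 0.17) and were not called (limma adjusted p = 0.0577 and 0.0676), with all KO livers above all WT livers on both.

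**Figure D2:**
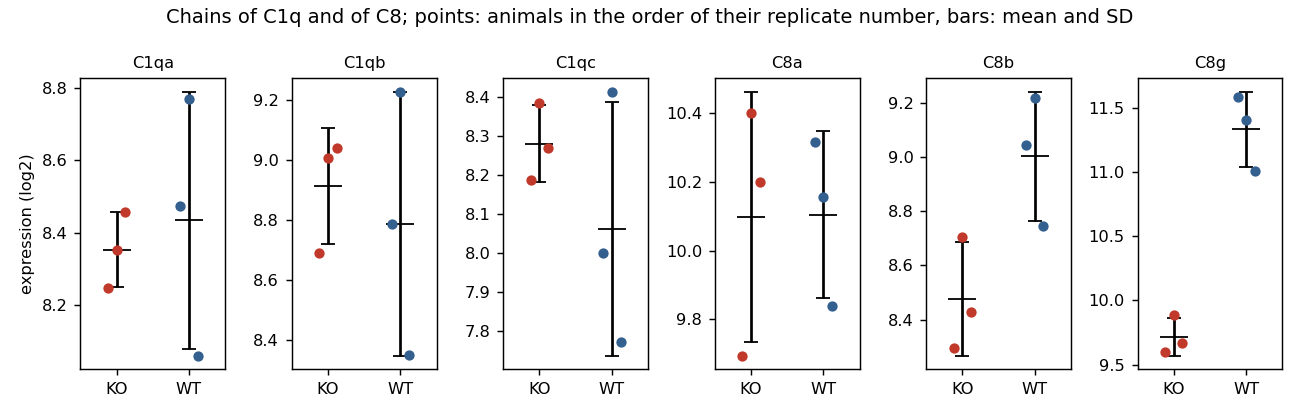
Expression (log2, each panel on its own axis) of the 3 C1q chains and the 3 C8 chains in KO and WT livers, with a point per animal, ordered by replicate number, and bars for mean and SD (n = 3). KO and WT overlap in the C1q chains and C8a, while C8g read 9.60 to 9.88 in KO against 11.01 to 11.58 in WT.

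In the lectin pathway, 3 of 5 genes fell and 0 rose, where 8.09% of all genes fell and 10.5% rose. Of the 3 falls, that of Masp2 alone kept its call whichever array was left out. Masp2, the serine protease that cleaves C4 and C2 once a lectin has bound, read 7.64, 7.85 and 7.86 log2 in KO livers, against 8.78, 8.83 and 8.80 in WT livers. The WT livers lay close together and well above all KO livers, a fall of 1.02 log2 (SE 0.11, limma adjusted p = 0.000981). That probe set is of a type that can read several transcripts of a gene. The other probe set was not called and read 7.61, 7.67 and 7.42 in KO, against 7.73, 7.76 and 7.71 in WT (-0.17, SE 0.12, limma adjusted p = 0.337 over all probe sets). Their difference within an array was 0.22 ± 0.21 log2 in KO and 1.07 ± 0.02 in WT (SD, n = 3; exact permutation test, two-sided, p = 0.1, adjusted p = 0.114 over 8 pairs of probe sets compared in this way). Which transcripts the probe sets read was not analysed here. With Masp2 read by the mean of both, the fall was 0.59 log2 (adjusted p = 0.00676).

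Mbl2, the mannose-binding lectin C that recognises microbial sugars, read 11.26, 11.36 and 11.26 log2 in KO livers, against 11.58, 11.85 and 11.71 in WT livers. Its fall was small, at 0.42 log2 (SE 0.10, limma adjusted p = 0.0262), and the groups did not overlap. Mbl1, the mannose-binding lectin A, read 9.34, 9.81 and 9.66 in KO, against 10.17, 10.05 and 9.75 in WT, overlapping at 1 animal, and was not called (-0.38, SE 0.16, adjusted p = 0.129). Fcna, ficolin A, which recognises acetylated sugars and is a product of liver macrophages, read 7.67, 7.49 and 7.78 in KO, against 8.18, 8.0 and 8.03 in WT. All KO livers were lower, and it fell by 0.42 log2 (SE 0.12) at the edge of the threshold (limma adjusted p = 0.0483, and 0.0518 when adjusted over all probe sets). Masp1, a partner protease that activates Masp2, was at 0.00 log2 (95% interval -0.29 to 0.29), and its 3 other tested probe sets lay between -0.28 and -0.03 without a call. The call of Mbl2 was lost without any single array other than WT replicate 1 (adjusted p up to 0.0849) and that of Fcna without any other than KO replicate 3 (adjusted p up to 0.155). Fcna was also not called without a filter (limma adjusted p = 0.0581) or with arrays centred on their medians (0.0651). With arrays centred on hepatocyte markers, neither Mbl2 nor Fcna was called (limma adjusted p = 0.298 and 0.316). Among 8 Kupffer cell markers, which moved with Fcna in part, 5 fell and 3 rose. Of the falls, Cd163 read 3.16, 3.15 and 3.33 log2 in KO, all below the filter level of 3.58. It passed the filter only through the WT livers, so its fall is given as a description. The mean level of the 8 markers was 6.59 to 6.81 log2 in KO and 7.08 to 7.47 in WT, and their part in the result was not tested. In whole liver, fewer cells of a type and less RNA per cell cannot be told apart.

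Promoters of the lectin pathway genes with the lower adjusted p-values among those that fell, Masp2 and Mbl2, are shown to give their sequence context, from RefSeq (GRCm38.p6), each 250 bases before to 50 after the gene's start, read in the direction of the gene. Windows were at hand for 21 of the 29 genes. Capitals mark matches on either strand to the motifs of inflammatory factors: GGNNNTTCC for NF-kappaB, TTCNNNGAA for STAT, TTGCNNAA for C/EBP and AANNGAAA for interferon-stimulated elements. Over all 32851 windows, 18.5% held the NF-kappaB letters, 8.3% STAT, 10.8% C/EBP and 23.9% the interferon letters. Of the 22 windows of complement genes, 4, 3, 1 and 7 held them in that order. Masp2 has 1 match, to STAT, and Mbl2 1, to NF-kappaB, while the window of Fcna, which also fell, holds 0 matches.
Masp2 (chr4:148602294-148602593, plus strand): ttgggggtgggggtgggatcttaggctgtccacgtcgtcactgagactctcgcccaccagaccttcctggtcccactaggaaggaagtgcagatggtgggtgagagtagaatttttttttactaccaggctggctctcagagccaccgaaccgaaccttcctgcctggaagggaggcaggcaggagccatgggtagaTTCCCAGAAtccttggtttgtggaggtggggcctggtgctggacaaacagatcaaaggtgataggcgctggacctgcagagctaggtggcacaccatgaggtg
Mbl2 (chr19:30232678-30232977, plus strand): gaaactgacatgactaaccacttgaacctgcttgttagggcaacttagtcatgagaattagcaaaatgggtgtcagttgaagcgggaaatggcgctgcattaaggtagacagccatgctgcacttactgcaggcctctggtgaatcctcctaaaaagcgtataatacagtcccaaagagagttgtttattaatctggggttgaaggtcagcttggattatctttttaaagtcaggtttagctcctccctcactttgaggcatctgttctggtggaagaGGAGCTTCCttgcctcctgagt

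The alternative pathway genes were not called. Cfb, factor B, supplies the protease of the alternative C3 convertase. It read 11.32, 11.67 and 11.80 log2 in KO livers, against 11.03, 11.33 and 11.02 in WT livers. The lowest KO value lay just under the highest WT value, and the difference of 0.47 log2 (SE 0.15) missed the threshold (limma adjusted p = 0.0612), though it passed once KO replicate 1 was left out (0.61, limma adjusted p = 0.0350). It also passed without WT replicate 2 (0.57, with 0.0477), with arrays centred on their medians (0.51, with 0.0490) and with arrays centred on hepatocyte markers (0.70, with 0.0174). Leaving out any other single array gave no call (limma adjusted p = 0.128 to 0.174). Nor did quantile normalization (0.0738), a fit without intensity trend (0.0724) or array quality weights (0.0935). Centring on poly-A controls turned the difference to -0.28, without a call. Cfb lies next to C2 on chromosome 17 with no protein-coding gene between them. The C2 signal minus the Cfb signal was -2.50 ± 0.30 log2 in KO and -2.77 ± 0.09 in WT (SD, n = 3), a shift of 0.28 (exact permutation test, two-sided, p = 0.3). Cfp, properdin, which stabilises the alternative convertase, differed by 0.17 log2 (SE 0.14) on its brighter probe set and 0.47 (SE 0.14, limma adjusted p = 0.0534) on the other.

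Genes of the terminal pathway, which builds the membrane attack complex from C5 to C9, went in different directions. C8g encodes the gamma chain of C8, a member of the lipocalin family that is bound to the alpha chain. Each C8 chain was read by 1 probe set, and those of C8g and C8b are of the type that can read several transcripts. C8g read 9.60, 9.88 and 9.67 log2 in KO livers, against 11.58, 11.40 and 11.01 in WT livers. It was 3.06-fold lower in KO, with more than 1 log2 between the groups, and 99.5% of the genes tested had a higher difference (-1.61, SE 0.16, limma adjusted p = 0.000636). The other chains of C8 did not show this. C8a, encoding the alpha chain, read 9.69, 10.40 and 10.20 in KO, against 10.32, 10.16 and 9.84 in WT, a difference of -0.01 (95% interval -0.47 to 0.46). C8b, encoding the beta chain, read 8.29, 8.70 and 8.43 in KO, against 9.04, 9.22 and 8.75 in WT. The C8b groups did not overlap, but its difference of -0.53 (SE 0.16) was not called (limma adjusted p = 0.0567). C8b was called once WT replicate 3 was left out (-0.66, limma adjusted p = 0.0289). Weighting arrays by quality also gave a call (-0.58, with 0.0327). Centring on the poly-A controls did too (-1.28), but there 10120 of all 13370 genes were called as lower. Centring on hepatocyte markers gave no call for C8b (-0.30, with 0.249).

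Set against each other within each array, the C8 chains shifted apart. C8g minus C8a was -0.10, -0.52 and -0.53 log2 in KO livers, against 1.27, 1.25 and 1.17 in WT livers. All KO livers lay more than 1 log2 below all WT livers, a shift of -1.61. The shift of C8g minus C8b was -1.09 and that of C8b minus C8a was -0.52, again without overlap (exact permutation test, two-sided, p = 0.1 for each, adjusted p = 0.114 over the 8 pairs). C8a and C8b are neighbours on chromosome 4, while C8g lies on chromosome 2. The promoter windows of the 3 chains are shown because the chains of 1 protein complex differed. C8g has 2 annotated starts, and neither its windows nor that of C8b holds any of the 4 motifs, while that of C8a holds 1 STAT match.
C8g, start 1 (chr2:25501670-25501969, minus strand): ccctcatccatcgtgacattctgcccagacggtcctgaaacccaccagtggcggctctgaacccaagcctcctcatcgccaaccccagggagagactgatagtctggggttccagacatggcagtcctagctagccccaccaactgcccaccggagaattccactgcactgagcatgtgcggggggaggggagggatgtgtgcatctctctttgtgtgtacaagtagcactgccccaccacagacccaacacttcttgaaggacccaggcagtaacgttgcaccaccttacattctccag
C8g, start 2 (chr2:25500457-25500756, minus strand): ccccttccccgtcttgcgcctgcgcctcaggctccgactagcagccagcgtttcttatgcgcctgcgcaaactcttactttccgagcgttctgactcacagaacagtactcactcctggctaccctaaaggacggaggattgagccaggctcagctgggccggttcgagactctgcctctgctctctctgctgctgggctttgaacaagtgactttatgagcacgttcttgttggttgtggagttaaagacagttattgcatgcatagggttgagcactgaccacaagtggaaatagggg
C8b (chr4:104766067-104766366, plus strand): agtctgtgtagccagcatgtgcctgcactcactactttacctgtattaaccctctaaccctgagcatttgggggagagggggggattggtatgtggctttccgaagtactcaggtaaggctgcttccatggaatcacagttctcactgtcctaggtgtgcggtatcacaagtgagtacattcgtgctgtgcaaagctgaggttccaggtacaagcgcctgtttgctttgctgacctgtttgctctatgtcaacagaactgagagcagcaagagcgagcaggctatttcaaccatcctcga
C8a (chr4:104876349-104876648, minus strand): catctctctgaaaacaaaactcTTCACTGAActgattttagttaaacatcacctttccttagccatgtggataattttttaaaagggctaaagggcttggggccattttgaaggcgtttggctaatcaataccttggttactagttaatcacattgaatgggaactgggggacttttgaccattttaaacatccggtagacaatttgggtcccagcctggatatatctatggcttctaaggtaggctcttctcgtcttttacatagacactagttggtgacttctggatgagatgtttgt

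C6, which joins C5b to start the pore, read 5.38, 4.96 and 5.42 log2 in KO livers, against 5.84, 5.90 and 6.06 in WT livers. All KO livers were lower, and C6 fell by 0.68 log2 (SE 0.15, limma adjusted p = 0.0181). The call was lost without KO replicate 2, the lowest animal (-0.53, adjusted p = 0.0525). C9, whose copies polymerise into the pore, read 10.56, 10.75 and 10.12 in KO, against 9.53, 10.09 and 8.41 in WT. Every KO value exceeded every WT value, yet the WT livers were widely spread (SD 0.86), with the lowest in replicate 3. The difference of 1.14 (SE 0.38) was not called (limma adjusted p = 0.0760). It was 1.51 and called without WT replicate 2 (adjusted p = 0.0236), and 0.67 and not called without WT replicate 3 (adjusted p = 0.0855). Hc, the gene of C5, read 11.55, 11.65 and 11.56 in KO, against 11.54, 11.25 and 11.24 in WT. Its groups were apart by a narrow margin, and the difference of 0.25 (SE 0.11) was not called (adjusted p = 0.151).

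**Figure D3:**
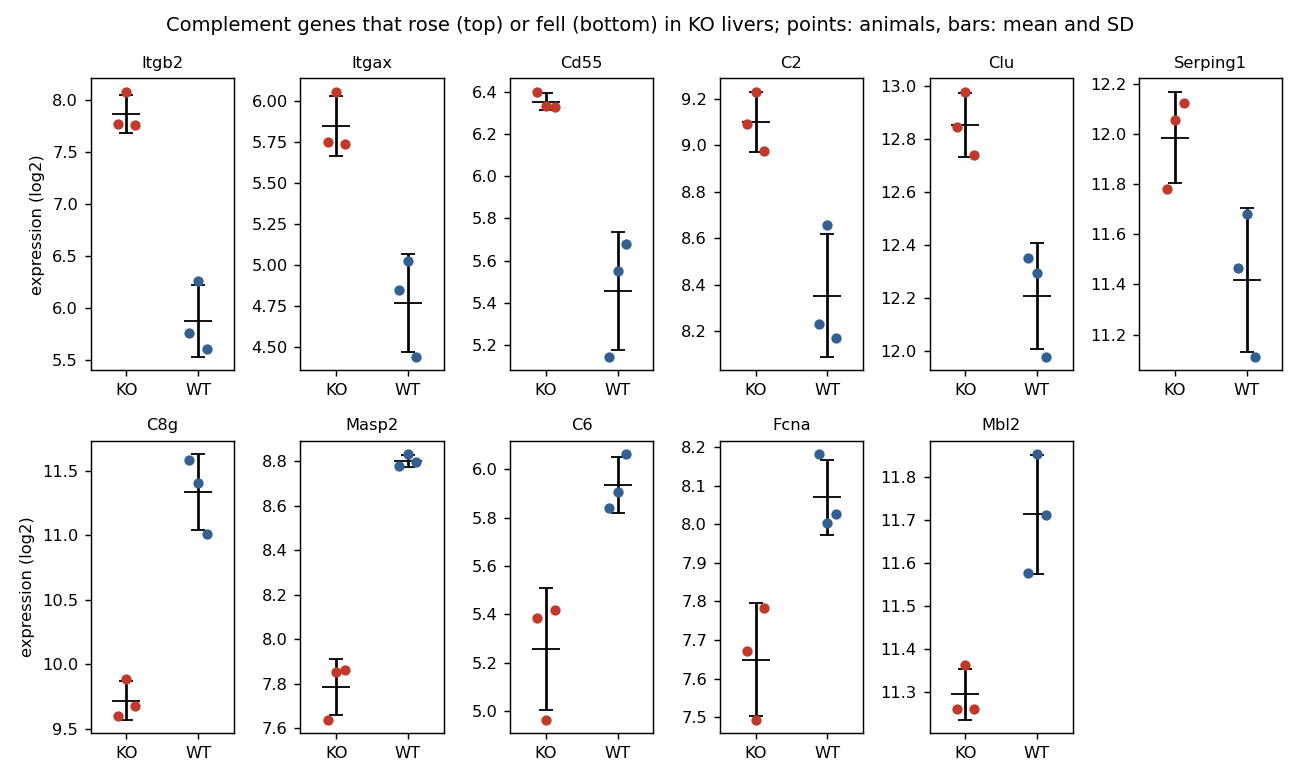
Expression (log2, each panel on its own axis) of the 6 complement genes that rose (top) and the 5 that fell (bottom) in KO livers, with a point per animal and bars for mean and SD (n = 3). In each panel all KO livers lie apart from all WT livers, with the widest gaps in Itgb2 and C8g.

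Among the 8 regulators, 3 rose and 0 fell when each was read by its brightest probe set. Over all genes, 10.5% rose and 8.09% fell. Cd55, decay-accelerating factor, a membrane protein that takes C3 convertases apart, read 6.40, 6.33 and 6.33 log2 in KO livers, against 5.14, 5.55 and 5.68 in WT livers. KO livers were tightly grouped above the more scattered WT livers, a 1.86-fold rise (0.90 log2, SE 0.15, limma adjusted p = 0.00633). Its dimmer probe sets were not called, at 0.11 (SE 0.16) and 0.41 log2 (SE 0.18), and with the mean of the 3 probe sets the gene was not called (0.47, adjusted p = 0.0527). Clu, clusterin, which blocks insertion of the attack complex in plasma, read 12.85, 12.98 and 12.74 in KO, against 12.35, 12.29 and 11.98 in WT. Clu rose 1.57-fold (0.65 log2, SE 0.12, limma adjusted p = 0.00952), and all 4 of its probe sets rose, by 0.48 to 0.72 log2. Serping1, the C1 inhibitor, which also controls plasma kallikrein, read 11.78, 12.05 and 12.12 in KO, against 11.47, 11.68 and 11.11 in WT. The gap between the groups was narrow, and Serping1 rose by 0.57 log2 (SE 0.16, limma adjusted p = 0.0441), a call lost without any single array other than WT replicate 2 (adjusted p up to 0.137). It was also lost with quantile normalization (adjusted p = 0.0511), without an intensity trend (0.0529) and with array quality weights (0.0607).

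The remaining regulators were not called by their brightest probe sets. Vtn, vitronectin, which like clusterin holds back the terminal complex, was at 0.01 log2 (95% interval -0.18 to 0.20), and Cfi, factor I, the protease that inactivates C3b and C4b, was at -0.00 (interval -0.21 to 0.21). These 2 had the narrowest intervals of the 29 genes. C4bp, the C4b-binding protein that serves factor I as a cofactor, was at 0.19 (interval -0.21 to 0.60), with KO values from 10.98 to 11.65. Cd46, another such cofactor, which in mice is mainly a testis protein, was at -0.11 (interval -0.36 to 0.14) and dim, at 4.60 to 4.77 in KO and 4.69 to 4.87 in WT. Cd59a, the membrane inhibitor of C9, was not called on its brighter probe set (-0.29, SE 0.14, adjusted p = 0.195). Its other probe set read 7.68, 7.78 and 7.63 log2 in KO, against 8.33, 8.27 and 8.48 in WT. That probe set fell by 0.67 log2 (SE 0.12, limma adjusted p = 0.00689 over all probe sets), with all KO livers below all WT livers. Read by the mean of both, Cd59a fell by 0.48 log2 (limma adjusted p = 0.0282). The promoter of Cd55, which lies 1 protein-coding gene away from C4bp on chromosome 1, holds 1 match to the NF-kappaB letters on the reverse strand.
Cd55 (chr1:130462695-130462994, minus strand): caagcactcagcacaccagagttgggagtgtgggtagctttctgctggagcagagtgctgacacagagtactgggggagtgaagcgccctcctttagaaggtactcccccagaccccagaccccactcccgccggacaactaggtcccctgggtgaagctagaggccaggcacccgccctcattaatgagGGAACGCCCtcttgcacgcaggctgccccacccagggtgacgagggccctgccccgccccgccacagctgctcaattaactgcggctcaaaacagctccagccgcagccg

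**Figure D4:**
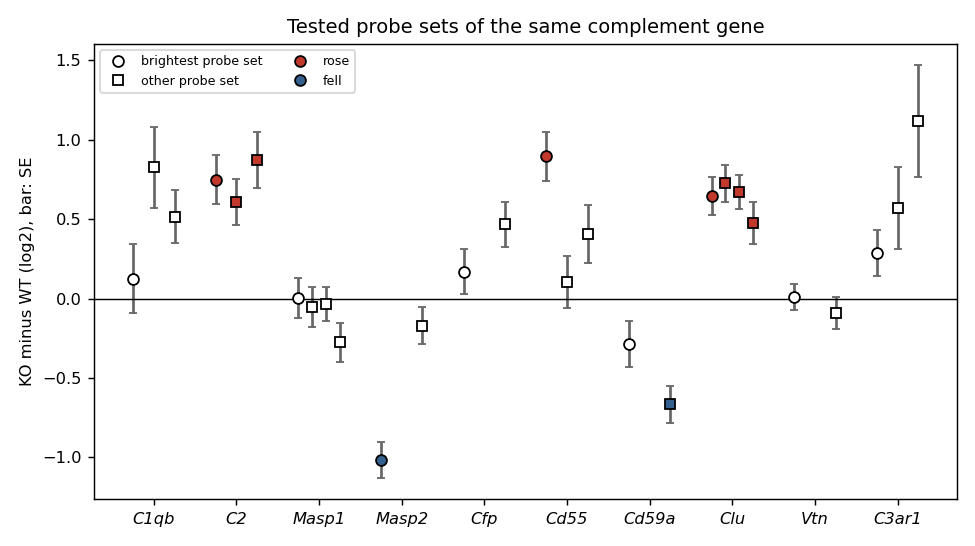
Difference between KO and WT livers (log2, y axis, bar for SE) on each tested probe set of the 10 complement genes with more than 1, ordered from bright to dim within a gene. The probe sets of C2 and Clu rose together, while those of Masp2, Cd55 and Cd59a disagreed, with 1 called and the others not.

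Of 47 tested probe sets of the complement genes, 11 rose and 5 fell, together 34.0%, where 17.9% of all 27022 probe sets were called. No gene had probe sets called in opposite directions. A dim probe set of Masp1 and of C5ar1 lay below the filter level of 3.58 log2 and were not tested. The C5ar1 one read 3.29, 3.48 and 3.25 in KO, against 2.63, 2.43 and 2.73 in WT, all below that level.

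Receptors gave the highest rise of the list. Itgb2 encodes the beta 2 integrin chain shared by complement receptors 3 and 4 on leukocytes. It read 7.78, 8.08 and 7.76 log2 in KO livers, against 5.76, 6.27 and 5.60 in WT livers. Every KO liver stood far above the highest WT liver, a 3.98-fold rise (1.99 log2, SE 0.19, limma adjusted p = 0.000521) that 0.987% of the genes tested exceeded. Itgax, the CD11c chain that pairs with it in complement receptor 4, read 5.75, 6.05 and 5.74 in KO, against 4.84, 5.02 and 4.44 in WT. It rose 2.11-fold without overlap (1.08 log2, SE 0.17, limma adjusted p = 0.00488). Itgb2 lies on chromosome 10, as does Sgpl1, with 118 protein-coding genes between them. A strain difference linked to the targeted gene and a response to its loss cannot be told apart there.

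Receptors for the anaphylatoxins, the small fragments that attract and activate leukocytes, were dim and not called. C3ar1 read 4.69, 5.11 and 4.86 log2 in KO, against 4.51, 4.78 and 4.51 in WT (0.29, SE 0.14, adjusted p = 0.195). Its faintest probe set read 4.92, 5.27 and 3.67 in KO, against 3.58, 3.40 and 3.51 in WT. There 2 KO livers stood far above the rest while KO replicate 3 lay near WT (1.12, SE 0.35, limma adjusted p = 0.0614). C5ar1 was at 0.05 (95% interval -0.25 to 0.36) on its tested probe set.

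Neutrophil markers, and some of the macrophage and monocyte markers, moved with the integrin rise, while the Kupffer cell markers given above went in both directions. Of 13 tested neutrophil markers 12 rose, at a median of 3.62 log2, and 0 fell. Among those that rose, Mmp8 had a WT mean of 3.38, below the filter level, and passed the filter through the KO livers. The mean level of the 13 markers was 8.12 to 8.38 in KO and 5.13 to 5.34 in WT. Of 9 macrophage and monocyte markers 4 rose and none fell, with a mean level of 7.41 to 7.58 in KO and 5.87 to 6.37 in WT. The 4 tested dendritic cell markers, of a cell type that also carries CD11c, were not called, at a mean of 4.74 to 4.76 in KO and 4.65 to 4.87 in WT. Of 14 hepatocyte markers 5 fell and 0 rose (median -0.18). The part of these cell types in the changes of Itgb2, Itgax, C2 or C8g was not tested.

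Other genes of the complement system and its neighbours, from a further list of 39, were tested in 24 cases, of which 6 rose and 5 fell. This is 25% and 20.8%, beside the shares over all genes given above, and the median difference was 0.00 log2. Itgam, the CD11b chain that forms complement receptor 3 with the Itgb2 product, read 4.84, 4.91 and 4.78 log2 in KO livers, against 3.36, 3.14 and 3.33 in WT livers. All WT values lay below the filter level, so Itgam passed the filter only through the KO livers, and its difference of 1.57 (SE 0.11, limma adjusted p = 0.000108) is given as a description. Vsig4, the complement receptor of Kupffer cells that takes up C3b-coated particles, read 6.57, 5.81 and 6.78 in KO, against 8.66, 8.79 and 8.62 in WT. It was 4.94-fold lower in KO (limma adjusted p = 0.000703), opposite to the integrin receptors. Vsig4 and the Fcnb gene named next also belong to the cell marker lists.

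Rises were also seen in Cd300lf, an inhibitory receptor of myeloid cells (2.62 log2, SE 0.28), Cd93, a lectin-like protein of endothelial and myeloid cells (1.33, SE 0.16), and Fcnb, the ficolin of myeloid cells (0.68, SE 0.16). Of secreted liver products, C1ra, a protease of the C1 complex, rose by 0.66 log2 (SE 0.15), and Apcs, serum amyloid P, a pentraxin that binds C1q, by 0.75 (SE 0.17). Cpn1, the carboxypeptidase N chain that inactivates anaphylatoxins, fell by 0.42 (SE 0.11). Cfhr2, a factor H-related gene, fell by 0.55 (SE 0.15), the mitochondrial C1q-binding protein C1qbp by 0.36 (SE 0.10) and prekallikrein, Klkb1, by 0.81 (SE 0.23). Limma adjusted p-values of these 9 genes ran from 0.000822 to 0.0439. Leaving out single arrays ended the call of C1qbp with any of the 6, of Cpn1 and Cfhr2 with 5, of Klkb1 with 4, and of C1ra, Fcnb and Apcs with 3.

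Most calls, those of Itgax and Cd55 among them, depended on how arrays were scaled. After centring on poly-A controls, the median of all genes was -0.80 log2 and that of the complement genes -0.70. Only Itgb2 remained called as higher in KO, at 1.24 log2, and 20 genes were called as lower. C2, Clu and Serping1 then stood at -0.00, -0.10 and -0.18, and Cd55 and Itgax at 0.15 and 0.33, without a call. With arrays centred on hepatocyte markers the medians were 0.18 and 0.28, 10 complement genes were called as higher and 2, C8g (-1.39) and Masp2 (-0.79), as lower. Over all genes, 2983 were called as higher and 447 as lower with this centring. Itgb2, C8g and Masp2, each read by its brightest probe set, were therefore called in the same direction on all 3 scales. For C8g and Masp2 the poly-A call carries little weight, since most genes were called as lower there. The other probe set of Masp2 was not called on the deposited scale (-0.17).

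**Figure D5:**
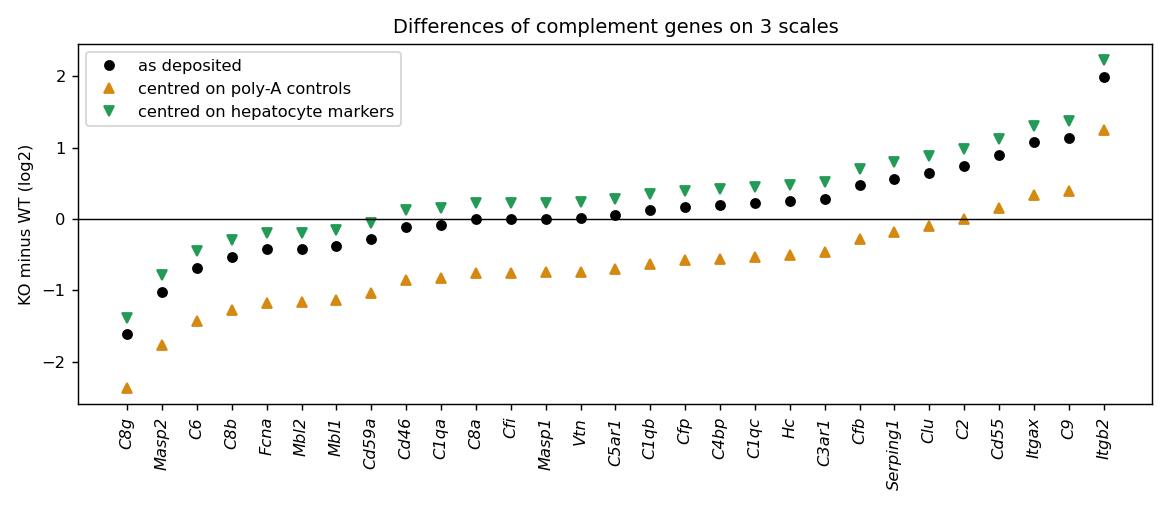
Difference between KO and WT livers (log2, y axis) of the 29 complement genes on the deposited scale, with arrays centred on poly-A controls and with arrays centred on hepatocyte markers. The order of the genes is the same on each scale, the poly-A centring lowers every value by 0.75, and Itgb2 stays above 0 and C8g and Masp2 below it on all 3.

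Within a genotype, some animals were the highest or lowest more often among the complement genes than among all genes. This was not tested, and the genes are not replicates. WT replicate 3 was the lowest WT liver in 20 of the 29 genes, where it was the lowest in 35.4% of all genes, and WT replicate 2 was the highest in 17 (29.5% of all genes). Among KO livers, replicate 1 was the lowest in 16 genes (37.9% of all genes) and replicate 2 the highest in 17 (36.5%), while replicate 3 was the highest in 9 and the lowest in 10. The median SD over the complement genes was 0.18 log2 in KO and 0.20 in WT, against 0.14 and 0.16 over all genes. C9 was the gene with an SD above 0.5 log2, in WT.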

How the data were processed

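Whole liver RNA of 3 KO and 3 WT mice was measured on 6 arrays, 1 per animal, grouped by the genotype in the labels. The authors deposited a log2 expression value for each probe set on each array. The log2 base was settled from their range, and MAS5 is the tool named per the submitters' processing notes, without a role. The sources used here do not state background correction, summarization or scaling. No detection calls were used. The number of arrays limits the precision.

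Probe sets were named through the platform annotation, which gave 34958 of 45101 exactly 1 symbol, 932 several and 9211 none listed. The 64 control probe sets and any whose mean lay below the 40th percentile (3.58 log2) did not enter. This left 27022 probe sets and 13370 genes, with the brightest probe set standing for a gene. KO and WT were fitted in limma 3.58.1 under R 4.3.3 (lmFit, eBayes with intensity trend, two-sided, no covariate), a step tested on simulated data, with Benjamini-Hochberg adjustment and a threshold of 0.05. A second fit took every probe set. Intervals are 95% from limma. Single values per array were compared by exact permutation tests.

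The genes described are Sgpl1, the listed members and called further genes of the pathway. The naming rule allowed 8 of the last, and Cfhr2, C1qbp and Klkb1 were added after their values were seen, so that all 11 called are named. The members, lists and scalings were chosen with earlier results of these data known. Gene order came from RefSeq GRCm38.p6. Alternatives were no filter, a 60th percentile filter, quantile normalization, median, poly-A and hepatocyte centring, no trend, array weights, mean of probe sets, every probe set on its own, probe sets not marked as shared, and leaving out each array.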

Additional observations from a re-analysis of the deposited data

How the results depend on the processing

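The count of complement genes that rose, 6 as deposited, was 1 with arrays centred on poly-A controls and 10 on hepatocyte markers, and 4 to 8 when single arrays were left out. The count that fell, 5, was 20 and 2 on those scales, 2 without probe sets marked x, s or a (which leaves 24 genes tested, without C8g), and 2 to 4 without single arrays. Counts over all genes moved too. As deposited 1400 rose and 1082 fell, against 377 and 10120 on the poly-A scale and 2983 and 447 on the hepatocyte scale. Without probe sets marked x, s or a, 1102 of 11626 rose and 923 fell. Without single arrays 792 to 1437 rose and 526 to 944 fell. The complement median of 0.05 log2 was -0.70 on the poly-A scale, 0.28 on the hepatocyte scale and 0.01 to 0.10 without single arrays. Further pathway genes that rose, 6, were 3 on the poly-A scale and 3 to 6 without single arrays. Those that fell, 5, were 3 with median centring, 13 on the poly-A scale, 1 on the hepatocyte scale and 1 to 3 without single arrays. On the poly-A scale the sign turned for C1qb (-0.62), C1qc (-0.53), C2 (-0.00043), Masp1 (-0.75), Cfp (-0.58), Cfb (-0.28), Hc (-0.50), Serping1 (-0.18), C4bp (-0.56), Clu (-0.10), Vtn (-0.74), C3ar1 (-0.46), C5ar1 (-0.70) and, of the further pathway genes called, C1ra (-0.088), Fcnb (-0.072) and Apcs (-0.0026), by construction, since every difference is 0.75 lower. Without probe sets marked x, s or a, Masp2 was at -0.17 and not called. C8g, Itgb2, Itgax, Cd55, Clu and Masp2 were called whichever array was left out. No paired analysis was possible because replicate numbers were given in accession order. Signal close to the filter level limits what C3ar1, C5ar1 and Cd46 can show.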
